A study of Mus musculus with 6 samples.

Results

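Keratins other than Krt6a, Krt6b, Krt15, Krt16 and Krt17 were measured in the FITC-challenged ears of 6 mice sensitised to this dye. The members were the genes of the deposited array table whose symbol is Krt followed by a digit, leaving out those 5, with keratin-associated (Krtap) genes not counted. This gave 47 of the 19938 genes with 1 symbol, each read by 1 probe set. The groups were 3 mice carrying CLEC4C-DTR (genotype CLEC4C-DTR/+), a transgene that puts the diphtheria toxin receptor under control of the human plasmacytoid dendritic cell gene CLEC4C, and 3 littermate controls without it. Mice of both groups were 10 to 12 weeks old and received 200 ng diphtheria toxin on days -1, 1, 3 and 5. All were painted with 0.5% FITC, a dye that sensitises skin: 100 µL went on the shaved abdomen on days 0 and 2, then 20 µL on the right ear pinna on day 6. RNA of the whole FITC-treated ear skin was hybridised to Affymetrix Mouse Gene 1.0 ST arrays, 1 mouse per array. Ears without FITC, mice without toxin and earlier times were not analysed here. Effects of the transgene and of the toxin on cells that carry it therefore cannot be told apart. Both groups had the same schedule, and how a difference changes with time from challenge cannot be seen.

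Keratins are the intermediate filament proteins of epithelial cells. A type I (acidic) and a type II (basic) keratin always pair to form the filament, so cells express them in partner sets. In skin, dividing basal cells make Krt5 and Krt14, cells that leave the basal layer switch to Krt1 and Krt10, and upper layers of mouse ear epidermis add Krt2. The hair follicle has sets of its own for the companion layer, the inner root sheath and the hard hair shaft, and simple epithelia, glands and Merkel cells use Krt7, Krt8, Krt18, Krt19 and Krt20.

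Most of these keratins did not pass the test. Krt24 and Krt79 fell in CLEC4C-DTR skin (adjusted p = 0.0350 and 0.0475, limma with Benjamini-Hochberg adjustment over all 19938 genes), no member rose, and 45 did not pass. The 2 falls are 4.26% of the members, near the 4.31% of all genes called lower at the same threshold of 0.05. No member was called higher, where limma called 5.01% of all genes, and 9.32% of all genes passed in either direction. At an unadjusted p under 0.05 there were 10 members (21.3%), 2 higher and 8 lower, and 27.3% of all genes (12.2% higher and 15.1% lower). In 42 of the 47 members the difference was smaller than 0.5 on the log2 scale. The median difference of the members was -0.13, against -0.04 for all genes, where each difference is the CLEC4C-DTR mean less the control mean in log2 units. Values were lower in CLEC4C-DTR skin for 37 members (78.7%, against 58.2% of all genes). That count depended on the scaling: it was 33 with each array centred on its median and 30 after a further quantile normalisation, with 51.6% and 55.0% of all genes lower. Krt24 and Krt79 passed under both scalings.

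**Figure D1:**
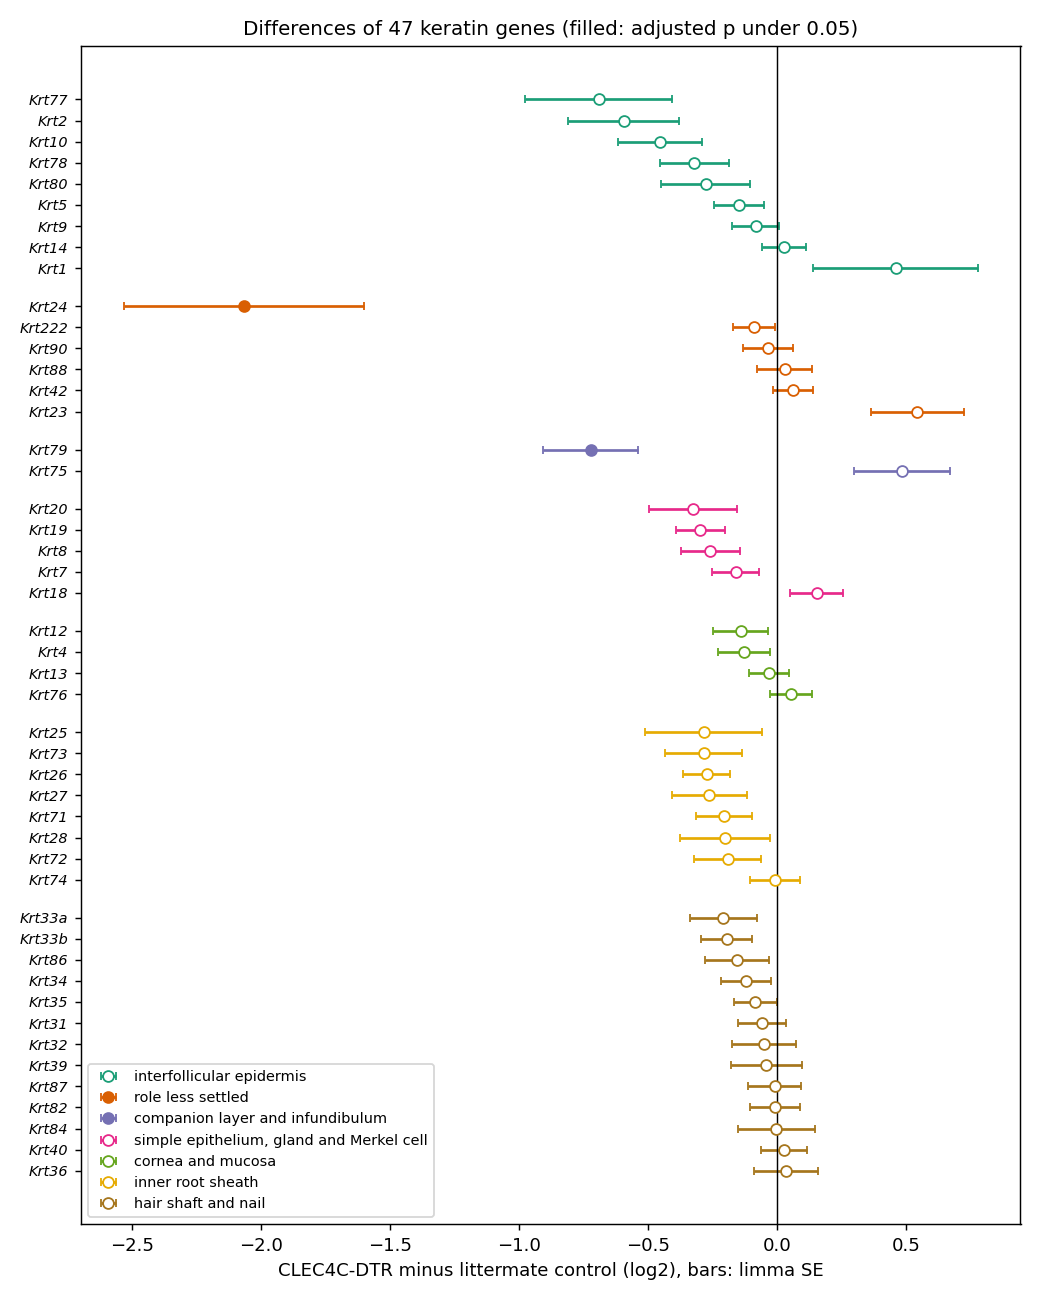
Difference of each of the 47 keratin genes between CLEC4C-DTR and littermate control skin (x axis, log2), with bars for limma's SE and genes grouped by the part of skin or epithelium they are known from. Krt24 at -2.07 and Krt79 at -0.72 are the filled points, and the points of the hair shaft group lie between -0.21 and 0.03.

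The start regions of 4 members are shown because Krt24 and Krt79 carry the 2 calls and Krt2 and Krt10 are keratins of the upper epidermis whose groups did not overlap. Each is the stretch of 250 bases before the RefSeq start site on GRCm38.p6, all on the minus strand, written 5′ to 3′. Capitals mark matches to the TATA box letters TATANAA or the C/EBP letters TTGCNNAA on either strand, and no match to AP-1 (TGANTCA) or AP-2 (GCCNNNGGC) letters was found in these windows.
Krt24 (chr11:99285263-99285512): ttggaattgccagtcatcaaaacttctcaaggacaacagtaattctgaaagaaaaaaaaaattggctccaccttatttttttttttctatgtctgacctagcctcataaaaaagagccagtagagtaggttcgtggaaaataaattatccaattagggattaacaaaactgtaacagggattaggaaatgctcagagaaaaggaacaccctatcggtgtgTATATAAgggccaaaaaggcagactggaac
Krt2 (chr15:101818170-101818419): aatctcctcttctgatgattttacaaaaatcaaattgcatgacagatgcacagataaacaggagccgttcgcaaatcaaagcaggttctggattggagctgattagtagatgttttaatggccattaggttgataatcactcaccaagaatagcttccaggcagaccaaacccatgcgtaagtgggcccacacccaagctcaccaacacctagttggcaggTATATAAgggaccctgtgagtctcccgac
Krt10 (chr11:99389365-99389614): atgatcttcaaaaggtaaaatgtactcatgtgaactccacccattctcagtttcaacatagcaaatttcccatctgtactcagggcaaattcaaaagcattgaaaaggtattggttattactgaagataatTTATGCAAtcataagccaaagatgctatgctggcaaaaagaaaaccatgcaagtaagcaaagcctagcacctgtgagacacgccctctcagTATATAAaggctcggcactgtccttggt
Krt79 (chr15:101940325-101940574): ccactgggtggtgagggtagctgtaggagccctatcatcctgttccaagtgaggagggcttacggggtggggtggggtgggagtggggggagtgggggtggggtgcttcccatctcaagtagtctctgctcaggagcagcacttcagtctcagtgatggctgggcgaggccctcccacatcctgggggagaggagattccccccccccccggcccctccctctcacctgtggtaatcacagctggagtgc

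Krt24, Krt2 and Krt10 share the letters TATATAA, which begin 30, 29 and 28 bases before the start. The Krt10 window also holds TTATGCAA, a C/EBP match, 119 bases before the start. Krt78, also grouped with the interfollicular epidermis and without overlap between groups, is not shown. No TATANAA match was found in its window. These letters describe the windows only. TATANAA was found in 10.4% and TTGCNNAA in 9.57% of 32817 windows of the same length before RefSeq start sites, AP-1 letters in 6.75% and AP-2 letters in 13.7%.

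Krt24, a type I keratin of stratified epithelium whose role is less settled, had the largest difference of the members. Its log2 value (probe set 10390789) was 9.04, 7.17 and 7.66 in CLEC4C-DTR replicates 1, 2 and 3 and 10.45, 9.37 and 10.27 in control replicates 1, 2 and 3. The groups did not overlap, but CLEC4C-DTR replicate 1 lay only just below control replicate 2. The mean fell by 2.07 on the log2 scale (SE 0.47, adjusted p = 0.0350), a level 4.19-fold lower, from 10.03 ± 0.58 (SD, n = 3) to 7.96 ± 0.97 (SD, n = 3). Of the members Krt24 alone also passed the submitters' threshold of 2-fold, which 0.376% of all genes passed in the lower and 1.67% in the higher direction. The call was kept in 2 of the 6 fits with 1 array left out. It was lost without CLEC4C-DTR replicate 2 or 3 or control replicate 1 or 3, where the difference was still between -1.95 and -1.68 (adjusted p = 0.0884 to 0.133).

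Krt79, a type II keratin known from the hair follicle infundibulum and the duct of the sebaceous gland, was the other member that fell. Its log2 value (probe set 10432897) was 9.93, 9.23 and 9.81 in the CLEC4C-DTR mice and 10.50, 10.18 and 10.45 in the controls. All 3 CLEC4C-DTR values lay below all 3 control values, with replicate 2 the lowest of its group on either side. The level was 1.65-fold lower (log2 -0.72, SE 0.18, adjusted p = 0.0475). The call held without CLEC4C-DTR replicate 1 (adjusted p = 0.0235) and was lost with any other array left out (adjusted p = 0.0609 to 0.162, difference -0.82 to -0.51).

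Sebaceous gland genes were lower beside Krt79. Of 9 measured genes, 5 fell and none rose. Those with the smallest p were Pparg, a regulator of lipid-storing cells, which fell by 0.63 (log2), Far2, an enzyme of wax ester synthesis, which fell by 1.28, Mgst1, which fell by 0.38, and the desaturase Scd1, which fell by 0.57. The median of the list was -0.38. Its summed level (log2 of the sum of unlogged values) was 13.13 to 13.47 in CLEC4C-DTR skin and 13.77 to 13.93 in controls, with CLEC4C-DTR replicate 2 the lowest, as for Krt79. The falls numbered 0 without CLEC4C-DTR replicate 3, control replicate 1 or control replicate 3, where limma gave 5 an unadjusted p under 0.05 each time, and 2 without CLEC4C-DTR replicate 2 or control replicate 2. The part of these genes in the Krt79 result was not tested. In whole skin, fewer cells of a type and less RNA per cell cannot be told apart.

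**Figure D2:**
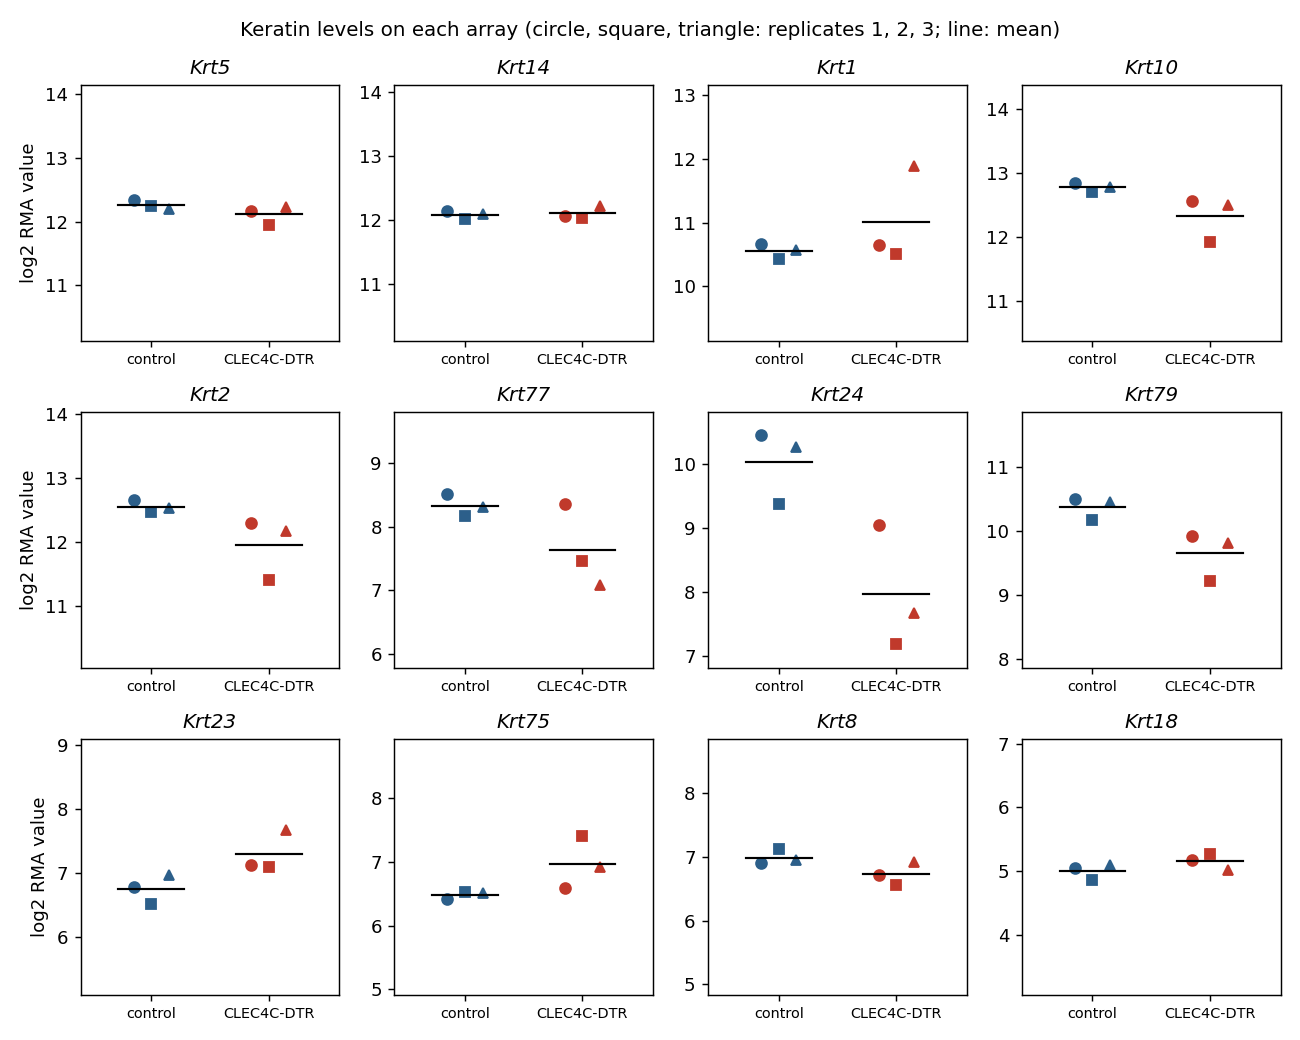
Log2 RMA values (y axis, the same span in each panel) of 12 keratins on each array, with controls in blue and CLEC4C-DTR in red. Circles, squares and triangles are replicates 1, 2 and 3, and lines are group means. Krt24 and Krt79 separate the groups, Krt14 lies between 12.01 and 12.22 on all 6 arrays, and Krt1 is high on 1 CLEC4C-DTR array alone.

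The basal partners Krt5 and Krt14 stayed within a narrow range. Krt14, the type I basal keratin, had log2 values of 12.06, 12.03 and 12.22 in CLEC4C-DTR skin and 12.14, 12.01 and 12.09 in controls. CLEC4C-DTR replicate 3 lay above the controls and the others among them, with a difference of 0.025 (SE 0.09, adjusted p = 0.884) whose sign turned after a further quantile normalisation (-0.030). Krt5, its type II partner, had values of 12.17, 11.94 and 12.23 against 12.34, 12.25 and 12.20. The difference was -0.15 (SE 0.10, adjusted p = 0.378), and CLEC4C-DTR replicate 3 lay among the controls.

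Krt10 and Krt2, type I and type II keratins of the layers above, had lower values in all 3 CLEC4C-DTR mice but did not pass. Krt10, the chief type I keratin of suprabasal cells, was at 12.56, 11.92 and 12.50 in CLEC4C-DTR skin and at 12.85, 12.71 and 12.79 in controls (difference -0.46, SE 0.16, adjusted p = 0.120). Krt2, which marks the upper spinous and granular layers, was at 12.31, 11.41 and 12.18 against 12.67, 12.47 and 12.54 (difference -0.60, SE 0.21, adjusted p = 0.121). In both genes the 3 controls were tight and CLEC4C-DTR replicate 2 was by far the lowest. Without that array the differences were -0.25 for Krt10 and -0.32 for Krt2 (adjusted p = 0.160 and 0.126). No alternative called either gene, and the lowest adjusted p of each came without CLEC4C-DTR replicate 1 (0.0644 and 0.0528).

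Krt1, the type II partner of Krt10, moved otherwise. Its log2 value was 10.66, 10.51 and 11.88 in CLEC4C-DTR skin and 10.67, 10.43 and 10.57 in controls. Replicates 1 and 2 of the CLEC4C-DTR group lay within the range of the controls, and replicate 3 stood far above all other arrays. The difference of 0.46 (SE 0.32, adjusted p = 0.402) rested on that array and was 0.026 without it (adjusted p = 0.921).

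Krt1 and Krt10 were also set against each other within each array. Krt1 minus Krt10 was -1.90, -1.41 and -0.63 (log2) in the CLEC4C-DTR mice and -2.17, -2.28 and -2.22 in the controls. All 3 CLEC4C-DTR values were higher, also those of the replicates in which Krt1 itself lay among the controls. The difference in this ratio was 0.91 on the log2 scale, with p = 0.1 in an exact two-sided permutation test, the smallest p that 3 against 3 mice can give, and an adjusted p of 0.25 over 5 partner pairs by the exact test. This test could not reach 0.05, and without CLEC4C-DTR replicate 3, a check chosen after seeing the data, the difference was 0.57. For Krt2 minus Krt10 the values were -0.25, -0.51 and -0.32 against -0.18, -0.24 and -0.25 (difference -0.14, exact permutation p = 0.1, adjusted p = 0.25). The groups did not overlap, but CLEC4C-DTR replicate 1 lay only just below control replicate 3. Without CLEC4C-DTR replicate 2, also a check chosen after seeing the data, this difference was -0.066. The groups overlapped for Krt5 minus Krt14 (-0.17, exact permutation p = 0.2), Krt8 minus Krt18 (-0.41, exact permutation p = 0.3) and the inner root sheath partners Krt71 minus Krt25 (0.08, exact permutation p = 0.9). These pairs are known filament partners and were picked after the values had been seen.

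The other 4 keratins grouped with the interfollicular epidermis also did not pass. Krt77, a type II keratin related to Krt1 and its neighbour on the chromosome, was at 8.35, 7.46 and 7.08 in CLEC4C-DTR skin against 8.50, 8.16 and 8.30. CLEC4C-DTR replicate 1 lay among the controls while replicates 2 and 3 were well below them (difference -0.69, SE 0.28, adjusted p = 0.161). Without CLEC4C-DTR replicate 1 Krt77 passed at -1.05 (adjusted p = 0.00515), and without CLEC4C-DTR replicate 3 it was at -0.42 (adjusted p = 0.378). CLEC4C-DTR replicate 3 thus had the highest Krt1 and the lowest Krt77 of the 6 arrays. Krt78 differed by -0.32 (adjusted p = 0.169), and its groups did not overlap. Krt80, a keratin of differentiating epithelial cells, differed by -0.28 (adjusted p = 0.340) and Krt9, known from palms and soles, by -0.08. Among all 9 epidermal members there were 0 calls by limma and 4 genes with an unadjusted p under 0.05 (44.4%), all lower. The median difference of the 9 was -0.28. They are mostly bright, with a median level percentile of 98.6. Of the 1994 genes in the top 10% of level, 779 (39.1%) reached that p, and 334 of these were lower.

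CLEC4C-DTR replicate 2 held the lowest value of the 6 arrays in 21 of the 47 members, and control replicate 1 the highest in 17. Among the 9 epidermal members with Krt24 and Krt79, CLEC4C-DTR replicate 2 was lowest in 8 of 11 and control replicate 1 highest in 9. Krt24 and Krt79 are the 2 members called lower, which bears on that count. No such counts were made over all genes, so they cannot be read as particular to keratins. The median deviation of the epidermal members from the control mean was -0.63 (log2) on CLEC4C-DTR replicate 2, against -0.02 and -0.13 for CLEC4C-DTR replicates 1 and 3. The median over all genes was -0.05 there. The same array had the highest summed level of neutrophil genes, at 14.78, with 14.18 and 14.71 for replicates 1 and 3 and 12.72 to 12.97 in controls. S100a8 and S100a9, at 13.27 and 13.42 on CLEC4C-DTR replicate 2, weigh most in this sum. Of 10 measured neutrophil genes 7 rose and none fell, among them S100a9 by 1.49, S100a8 by 1.61, Retnlg by 2.92 and Mmp9 by 2.27, and 2 to 9 rose with an array left out (2 without CLEC4C-DTR replicate 3 or control replicate 3). Ngp, Camp and Ltf of this list did not pass in the full fit. RMA values have no true zero, so no marker could be called absent. Which cells held the RNA of the neutrophil genes was not measured, and the part of these genes in the keratin values was not tested.

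**Figure D3:**
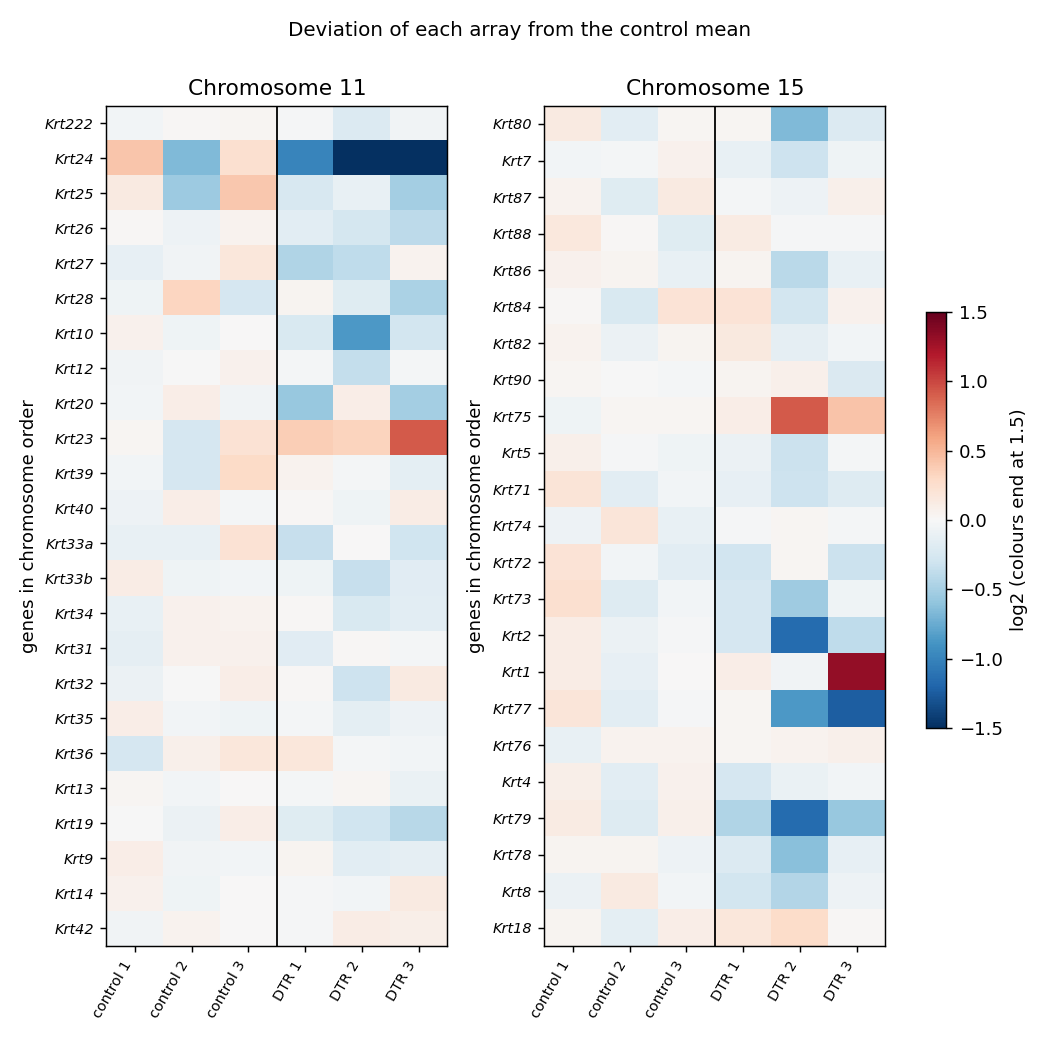
Deviation of each array from the mean of the 3 controls (colour, log2) for the 24 members on chromosome 11 and the 23 on chromosome 15, in chromosome order, with controls left of the line and CLEC4C-DTR arrays right of it. Krt24 is blue on all 3 CLEC4C-DTR arrays, Krt2, Krt10 and Krt79 are darkest on replicate 2, and Krt1 and Krt77, which are neighbours, have opposite signs on replicate 3.

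Krt23 and Krt75 were higher in all 3 CLEC4C-DTR mice without passing. Krt23, a type I keratin with a less settled role, was at 7.11, 7.09 and 7.67 against 6.78, 6.50 and 6.97 (difference 0.54, SE 0.18, adjusted p = 0.0978). Krt75, the type II keratin of the companion layer between the inner and outer root sheath, was at 6.58, 7.41 and 6.91 against 6.42, 6.52 and 6.51 (difference 0.48, SE 0.19, adjusted p = 0.140). Its lead came mainly from CLEC4C-DTR replicate 2, where most epidermal members were lowest, and without CLEC4C-DTR replicate 1 it passed (0.68, adjusted p = 0.0263), while without CLEC4C-DTR replicate 2 it was at 0.26 (adjusted p = 0.246). Krt23 was at 0.35 without CLEC4C-DTR replicate 3 (adjusted p = 0.212). Groups did not overlap in 11 of the 47 members (23.4%), 2 higher and 9 lower, beside 33.0% of all genes (14.0% higher and 19.0% lower). The 4 other members of the group with less settled roles, Krt42, Krt88, Krt90 and Krt222, differed by -0.09 to 0.06.

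Keratins of simple epithelium, glands and Merkel cells differed little. Krt8, the type II keratin of simple epithelia and of Merkel cells, was at 6.71, 6.55 and 6.91 against 6.89, 7.12 and 6.94, with CLEC4C-DTR replicate 3 among the controls (difference -0.26, SE 0.11, adjusted p = 0.187). Its partner Krt18 was at 5.17, 5.27 and 5.02 against 5.05, 4.86 and 5.10, with overlapping groups and the opposite sign (0.15, SE 0.10, adjusted p = 0.382). Krt19, also a keratin of the outer root sheath, had the smallest p of the group. Its values of 4.61, 4.49 and 4.38 lay below the 4.78, 4.70 and 4.89 of the controls (difference -0.30, SE 0.09, adjusted p = 0.0860). Krt20, a Merkel cell keratin, differed by -0.33 (adjusted p = 0.260) and passed without CLEC4C-DTR replicate 2 at -0.54 (adjusted p = 0.0410). Without CLEC4C-DTR replicate 1 the Krt20 difference was -0.20 (adjusted p = 0.482). None of the 5 members was called by limma, and Krt19 alone had an unadjusted p under 0.05. Krt18, Krt19 and Krt20 are dim, below the 25th percentile of level. Beside these members, the summed level of 6 Merkel cell genes was 7.48 to 7.63 in CLEC4C-DTR skin and 7.69 to 7.85 in controls. These genes are dim too, between the 8.31 and 42.8 percentiles of level, and the brighter Piezo2 and Isl1 weigh most in the sum. Lower values were found in 65.4% of all genes at or below the median level. Among the 6, 1 gene, the touch channel Piezo2, fell by 0.40 (adjusted p = 0.0341). That fall was kept without CLEC4C-DTR replicate 1 and in no other fit with an array left out.

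The 4 keratins of cornea and mucosa, tissues that ear skin does not hold, ranged from -0.14 to 0.05, with 0 called by limma and 0 with an unadjusted p below 0.05. Krt12, the cornea keratin, was both the brightest and the one with the smallest p, at 6.09, 5.76 and 6.09 against 6.07, 6.11 and 6.19 (adjusted p = 0.443). Krt4, Krt13 and Krt76 make up the rest.

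Inner root sheath keratins had lower values in all 8 members, and in 7 under either other scaling, yet 0 were called by limma and only Krt26 had an unadjusted p below 0.05. The inner root sheath is the layer that moulds the growing hair and breaks down as the hair emerges. Their differences ran from -0.29 to -0.01, with a median of -0.23. All 8 are dim, between the 7.12 and 33.9 percentiles of level. Of all genes at or below the median level, 65.4% had lower values. Krt26 had the smallest p, at 3.67, 3.57 and 3.43 against 3.85, 3.76 and 3.89, without overlap (difference -0.27, SE 0.09, adjusted p = 0.0960). Krt27, the brightest, was at 5.37, 5.44 and 5.87 against 5.71, 5.77 and 5.99, with overlap (difference -0.26, SE 0.15, adjusted p = 0.289). Krt74, listed by RefSeq as a transcribed pseudogene in the mouse, was the closest to 0. Among 4 other inner root sheath genes there were 0 calls by limma, and 3 of the 4 had higher values. The 2 with an unadjusted p below 0.05, named after their values were seen, went opposite ways. Gata3 differed by -0.58 and Cux1 by 0.36, both without overlap. The summed level of the 4 was 9.66 to 10.02 in CLEC4C-DTR skin and 10.03 to 10.12 in controls. This lower sum rests on Gata3 alone, the brightest of the 4, at the 92.7 percentile of level.

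Hair shaft keratins, which form the hard fibre with Krtap proteins, did not separate the groups. Among 13 members there were 0 calls by limma and 0 genes with an unadjusted p below 0.05, and differences ran from -0.21 to 0.03. Krt33b was the brightest and had the smallest p, at 6.98, 6.70 and 6.87 against 7.15, 6.98 and 7.00 (difference -0.20, SE 0.10, adjusted p = 0.246). Its groups did not overlap, though CLEC4C-DTR replicate 1 and control replicate 2 nearly met. Lower values were found in 11 of the 13, but in 8 with arrays centred on their median and in 6 after a further quantile normalisation. Members such as Krt33a and Krt33b have similar sequences, so their probe sets may read some of each other's RNA.

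Krtap genes, whose proteins fill the space between hair keratin filaments, were mostly lower in value. Of 44 Krtap genes 2 fell and none rose, Krtap7-1 by 0.54 (adjusted p = 0.0175) and Krtap19-5 by 0.76 (adjusted p = 0.0403), or 4.55%, with 4.31% of all genes called lower. The list's median was -0.16, and 40 had lower values (90.9%, and 37 genes after a further quantile normalisation). Of all genes 58.2% had lower values, and of those at or below the median level 65.4%. The Krtap genes are mostly dim, with a median level percentile of 25.9. An unadjusted p under 0.05 was found for 12 of the 44 (27.3%), all lower. Of all genes, 15.1% were lower and 27.3% differed in either direction at that threshold. The count of 12 became 7 with arrays centred on their median and 7 after a further quantile normalisation. Their summed level was 11.37 to 11.49 in CLEC4C-DTR skin and 11.56 to 11.65 in controls, without overlap. With an array left out there were 0 to 3 Krtap falls, 3 without CLEC4C-DTR replicate 1, 1 without control replicate 2 and 0 otherwise. Among 8 other hair shaft genes there were 0 calls by limma and 1 unadjusted p below 0.05, and their summed level was 8.996 to 9.14 against 9.08 to 9.38.

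Dim members and bright members differed in their spread of differences. The 34 members at or below the median level of all genes had differences of -0.33 to 0.15, and 28 (82.4%) were lower, where 65.4% of all genes at or below that level were lower. After a further quantile normalisation these shares were 58.8% and 52.6%. None of the 34 was called by limma, 3 had an unadjusted p below 0.05, and 3.87% of all genes in that range were called in either direction. The 13 members above the median level had differences of -2.07 to 0.54. Of these 2 were called (15.4%, with 14.8% of all genes above that level), and 7 had an unadjusted p under 0.05 (53.8%, against 37.6%). Probe sets differ in how strongly they bind, so these levels say nothing on which keratin is more abundant.

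Few genes that work with keratin filaments passed the test. Of 18 measured plakin, desmosome and hemidesmosome genes only Pkp2, a desmosomal plakophilin, fell, by 0.43 (adjusted p = 0.0401), and none rose, with a median of -0.12. An unadjusted p under 0.05 was found for 7 of them (38.9%, against 27.3% of all genes), and groups did not overlap in 8 (44.4%, against 33.0%). These genes are bright, with a median level percentile of 94.6. Of all genes above the median level the 2 shares were 37.6% and 43.9%, close to those of the list. After a further quantile normalisation 3 fell, and the count of falls was 0 to 5 with an array left out, 5 of them without CLEC4C-DTR replicate 1. Of 19 measured regulators of keratinocyte genes 3 passed. Prdm1, a repressor active in cornifying cells, rose by 1.16 (adjusted p = 0.0150), while Pou2f3, a factor of suprabasal cells, fell by 0.65 (adjusted p = 0.0259) and Tfap2a, the AP-2 alpha gene, by 0.36 (adjusted p = 0.0269). Which cells of the whole ear skin held these RNAs was not measured. None of the regulators was called by limma without CLEC4C-DTR replicate 3, control replicate 1 or control replicate 3, where 6, 6 and 4 had an unadjusted p below 0.05. Of 10 interfollicular differentiation genes 1 rose, the crosslinking enzyme Tgm1 by 1.57 (adjusted p = 0.0146), and none fell, with a median of -0.02. The list's largest difference was that of Flg2, a filaggrin-like protein of the cornified layer, at -1.72 with overlapping groups (SE 0.53, adjusted p = 0.0803), named after its values were seen. In the fits with array weights, with the replicate number as a block and without CLEC4C-DTR replicate 1, 1 gene of the list was called lower. None of these 10 was called by limma without CLEC4C-DTR replicate 3, control replicate 1 or control replicate 3, where 4, 2 and 2 had an unadjusted p below 0.05.

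All 5 keratins set aside passed the test. Krt6a, Krt6b, Krt16 and Krt17, keratins of injured or inflamed epidermis, rose by 1.81, 2.53, 1.70 and 0.92 (log2), and Krt15, of basal and follicle stem cells, fell by 1.59. The Krt15 call was lost without CLEC4C-DTR replicate 3, control replicate 1 or control replicate 3, and 3 of the other 4 were called without CLEC4C-DTR replicate 3. Their summed level was 13.53 to 13.90 in CLEC4C-DTR skin and 12.48 to 12.71 in controls. These 5 were left out with their results known, so the contrast with the 47 is a description. Skeletal muscle genes, from tissue that a whole ear sample can hold, were lower in all 10 measured, with 4 falls (0 to 5 with an array left out) and a summed level of 12.28 to 12.72 against 12.96 to 13.58, and CLEC4C-DTR replicate 2 was again the lowest. Their part in the keratin values was not tested.

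**Figure D4:**
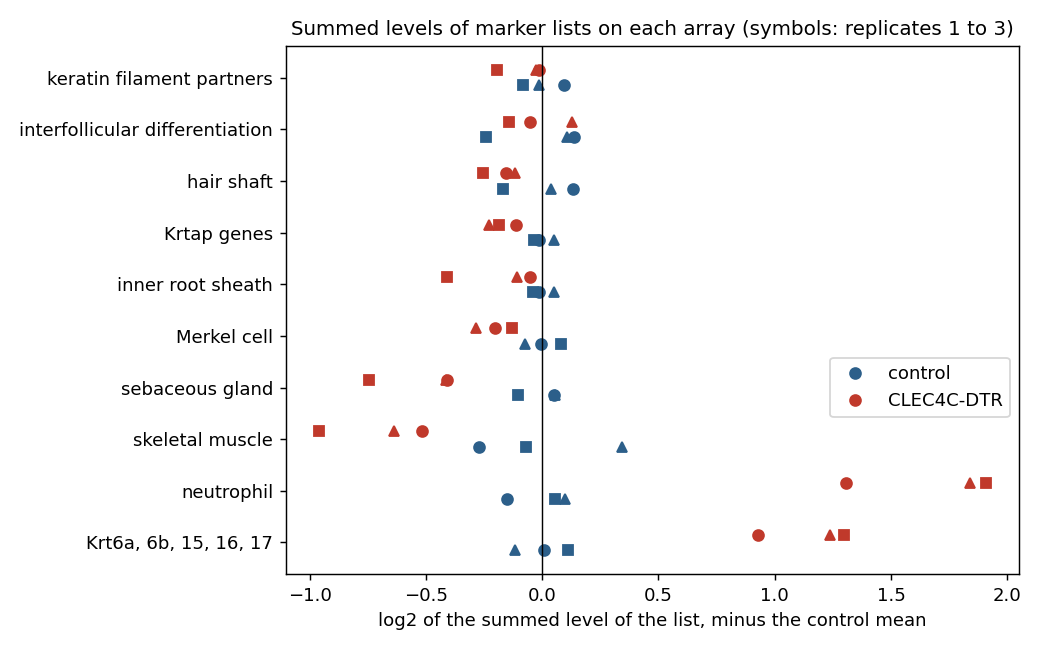
Summed level of each marker list on each array (x axis, log2 of the sum of unlogged values minus the mean of the controls), with controls in blue, CLEC4C-DTR in red and symbols for replicates 1 to 3. The 5 keratins set aside and neutrophil genes lie to the right in CLEC4C-DTR skin, sebaceous gland and skeletal muscle genes to the left, and the lists of filament partners and interfollicular differentiation overlap between groups.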

How the data were processed

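Per the series' design text, RMA (robust multi-array averaging) was used on the raw arrays. The deposited values are on a log2 scale, as read from their range of 1.60 to 13.9 and array medians of 6.17 to 6.23. No source used here names the software. Build mm8 appears in the submitters' processing notes, with no step attached. Because RMA aligns the distributions of the arrays, a shift common to most probe sets cannot be seen.

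Of 35556 probe sets, 21789 had 1 gene symbol in the platform annotation. The brightest per gene over the 6 arrays was kept, which gave 19938 genes, with none left out for a low level. All 47 members matched a RefSeq gene of the same symbol (GRCm38.p6, used for names, chromosome order and start regions). The start regions come from RefSeq's promoter table, which held 36 of the members, without the bases after the start.

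The groups were compared with limma 3.58.1 (lmFit and eBayes, R 4.3.3), two-sided, without covariates. Benjamini-Hochberg adjustment ran over all genes, with a threshold of 0.05. The limma step was tested on simulated data. Replicates are separate animals, and 3 arrays per group limit the precision. No pair of arrays was identical. The members and gene lists were chosen with earlier results of these data known. Values on every array are given for members past the threshold, for Krt1, Krt2, Krt5, Krt10, Krt14, Krt8, Krt18 and Krt79 whatever their values, and for the brightest member and the one with the smallest p of other role groups. Krt19, Krt23, Krt75, Krt77 and other members named with a value were added after their values were seen. Lists are described by counts, medians and summed levels. Python 3.11.15 and matplotlib 3.10.9 made the plots.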

Additional observations from a re-analysis of the deposited data

How the results depend on the processing

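With the 17 alternatives, no member was called higher except 1 with the replicate number as a block and 1 without CLEC4C-DTR replicate 1 (0 to 1 with an array left out). Members called lower, 2 with all arrays, were 1 with robust moderation (Krt24 had an adjusted p of 0.0589), 0 without moderation, 0 when probe sets with several symbols or none were added, and 0 to 3 with an array left out. For all genes, 1858 in the full fit, these counts were 0 without moderation, 94 with added probe sets, and 67 to 2617 with an array left out. Without moderation 4 members had an unadjusted p under 0.05, and with the added probe sets 8. Krt14 turned to -0.030 after a further quantile normalisation and lay between -0.032 and 0.059 with an array left out. No other member with values on every array changed direction. The replicate numbers were not treated as pairs of mice in the full fit. Same-numbered arrays correlated at -0.06, 0.22 and 0.10 in their deviations from the group means, and differently numbered arrays at -0.27 to 0.18. With 3 arrays per group these correlations cannot settle whether the numbers pair the mice. With that replicate block 1 member was called higher (Krt23, adjusted p = 0.0242), 2 lower, and 2084 genes in all. Filters on dim genes kept 29 members above the 25th percentile and 13 above the median, with the same 2 falls. The table has no background measure, so no probe set could be called present or absent.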

Other observations

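The TATA box letters TATANAA were found in the 250 bases before the start of 15 of the 36 members with a RefSeq window, against 10.4% of all windows. By group, 6 of 7 inner root sheath members and 5 of 9 hair shaft members held them, 2 of 7 epidermal members did (Krt2 and Krt10), and neither of the 2 companion layer and infundibulum members nor any of the 3 of cornea and mucosa did. C/EBP letters were found in 4 members, AP-2 letters in 5 and AP-1 letters in 1. No difference between groups of mice was set against these counts.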
